A study of Mus musculus with 18 samples.

Results

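CpGs that have another CpG exactly 2 bp away, so that the sequence reads CGCG, were followed across mouse embryonic stem cells rescued with 6 forms of DNMT1. The members are autosomal CpGs whose nearest listed CpG is 2 bp away, with 2 to 10 listed CpGs within 250 bp on either side (itself included) and at least 5 reads in each of the 18 libraries. There were 13081 such CpGs among the 21867550 CpGs listed for the GRCm38 genome. They were compared with 360128 CpGs of the same local density whose nearest CpG lies 20 bp or further away.

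All cells were mouse embryonic stem cells with a knockout of Dnmt1, grown in serum and leukemia inhibitory factor, in which DNMT1 was expressed from a stably transfected vector (pPyCAGIP) under puromycin selection for over 2 weeks. The groups expressed wild-type (WT) DNMT1 or DNMT1 with tryptophan replaced by alanine as W796A, W465A, W464A/W465A, W465A/W796A or W464A/W465A/W796A, with 3 biological replicates each. The assay was eRRBS (enhanced reduced representation bisulfite sequencing), in which genomic DNA is cut with MspI, BfaI and MseI before bisulfite conversion. Several stable lines were made per group, but the labels do not tie replicates to lines, so p-values measure only the spread between these libraries. Cells carrying an empty vector are not analysed here, so the level that remains without any DNMT1 is not given. Libraries held between 59776439 and 138978763 CpG calls, and 1424423 CpGs had at least 5 reads in all 18.

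DNMT1 copies CpG methylation onto the new strand after DNA replication. It acts on hemimethylated CpGs and can move along DNA from one CpG to the next. In a CGCG site both CpGs lie within the stretch of DNA that one bound enzyme contacts. The sequence is its own reverse complement, so both strands present the same order of CpGs. MspI cuts CCGG, and no CpG of a CGCG site can lie in CCGG.

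The following pairs illustrate the range of the data and are the ones described individually below. Each sequence is the GRCm38 reference, + strand, 5′ to 3′, and the capitals mark the adjacent CpGs. The first 3 had the largest difference between W465A and WT, and the fourth the largest between W464A/W465A and WT, in each case among pairs with at least 10 reads in every library, both CpGs called lower and no overlap between the 2 groups' libraries.
Pair 569180 bp from the Pcdh10 start: caaaggtggcttcCGCGgaccctgaggcag
Pair 27400 bp from the Cdkn1c start: agccataaagtccCGCGgcctccagaatcc
Pair in a Nat10 intron: taggtccacacagCGCGatcctggctggcc
Pair in a Lrtm2 exon: ggctttgggtggcCGCGggcacatccgggg
The next 3 had the largest differences between W465A/W796A and WT by the same rule.
Pair 88269 bp from the Nectin3 start: gttccaatccaatCGCGccagacctgagac
Pair in a Gm20745 intron: aggagcccccaccCGCGgagaatagctgat
Pair in an Adcy1 intron: ctgacttctgacaCGCGtgggggcaggagc
The next 3 kept the highest level in W464A/W465A and W464A/W465A/W796A among pairs with a WT mean of at least 80%.
Pair in a Nsun7 intron: aacaggattcttaCGCGgtctgtaaatggg
Pair in a Creg2 intron: gtagacatgactgCGCGtaccaactgtgac
Pair in a Mfsd4a intron: ttggggtcaaaggCGCGtgccaccatgtcc
The next pair has no other CpG within 250 bp and the most reads of any such pair, and the last sequence is the longest run, of 7 CpGs.
Pair in a Smyd1 intron: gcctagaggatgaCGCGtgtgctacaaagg
Run in a Senp7 intron: gtgtgtgCGCGCGCGCGCGCGcctgtgt

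Most members were simple pairs. Of the 13081, 12386 lay in a run of 2 CpGs, 457 in a run of 3 and 238 in a run of 4 or more. Both CpGs of 6123 pairs were members, so such a pair is 1 site read at 2 positions and not 2 independent sites. Introns held 52.2% of the members and 53.9% of the comparison CpGs, and sequence further than 500 bp from a transcription start and outside genes held 35.6% and 37.2%. Exons held 8.72% against 6.37%, promoters (500 bp either side of a start) 3.48% against 2.54%, and repeat-masked sequence 15.5% against 14.8%. The median coverage lay between 11 and 24 reads per library at members and between 10 and 24 at comparison CpGs. Only 1545 members had at least 10 reads in every library, so a level of 1 CpG in 1 library is coarse and means over CpGs carry the results.

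Adjacent CpGs were highly methylated with WT DNMT1 and lost most of it with 3 of the 5 mutants. A library's level is the share of reads that were methylated, averaged over members with equal weight. It was 70.2%, 82.1% and 81.1% in the 3 WT libraries, a mean of 77.8% ± 6.64 (SD, n = 3). With W796A the libraries stood at 62.1%, 86.4% and 82.4% (76.9% ± 13.1, SD, n = 3), which spanned the whole WT range. With W465A they stood at 39.7%, 27.9% and 29.6% (32.4% ± 6.42, SD, n = 3). W464A/W465A gave 20.8%, 25.4% and 21.1% (22.4% ± 2.59, SD, n = 3), and W464A/W465A/W796A gave 21.6%, 24.8% and 20.3% (22.2% ± 2.27, SD, n = 3). W465A/W796A lay between these and WT, at 60.6%, 54.6% and 55.5% (56.9% ± 3.25, SD, n = 3). All libraries of the 4 mutants that carry W465A lay below all WT libraries.

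**Figure D1:**
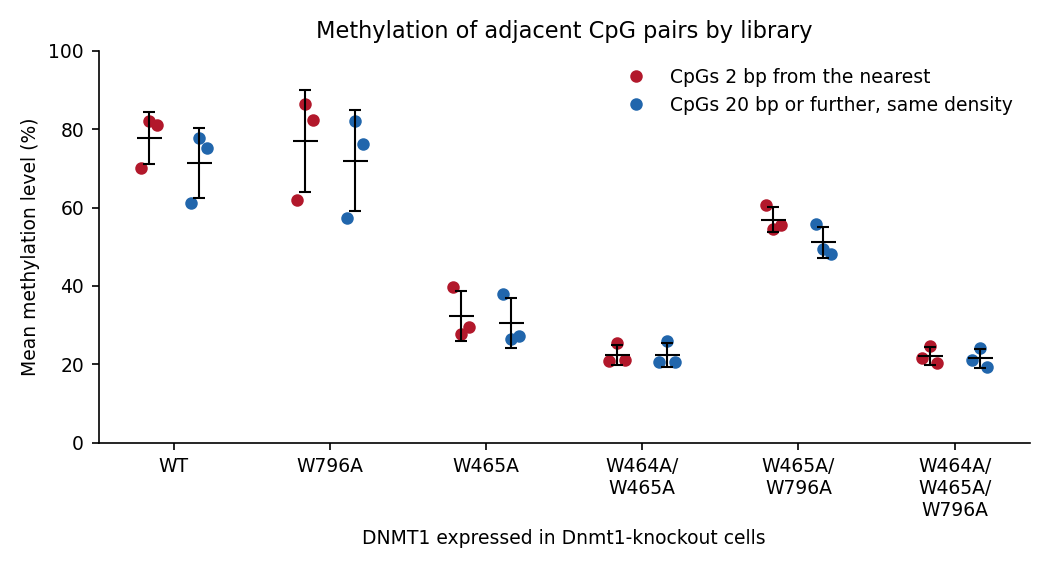
Mean methylation level in percent (vertical axis) of CpGs 2 bp from the nearest CpG (red) and of comparison CpGs weighted to the same densities (blue), for each of the 6 forms of DNMT1 (horizontal axis). Points are the 3 libraries of a group and black bars the mean and SD. The red points stand above the blue ones in WT, W796A and W465A/W796A and beside them in W464A/W465A and W464A/W465A/W796A.

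Against WT, the member level differed by -45.4 percentage points for W465A and -55.4 for W464A/W465A. It differed by -20.9 points for W465A/W796A and by -55.6 for W464A/W465A/W796A. Each had an exact two-sided permutation p of 0.1, the smallest that 3 libraries against 3 allow. The W796A difference was -0.87 points (exact permutation p 1), and it turned to 6.57 points without W796A replicate 1, which had the lowest level there, to 1.28 without WT replicate 2 and to 0.79 without WT replicate 3. Each substitution was also averaged over forms that do and do not carry W796A. The mean effect on members was -32.7 points for W465A, -55.0 for W464A/W465A and -22.3 for W464A on top of W465A. Each of these had an exact stratified permutation p of 0.005, the smallest possible, and a Benjamini-Hochberg adjusted p of 0.00667 over 4 effects. The means for W465A and for added W464A joined unlike values. W465A made a difference of -45.4 points in the WT background and of -20.0 in the W796A background. Added W464A made a difference of -9.95 points in the W465A background and of -34.7 in the W465A/W796A background. The W796A effect over its 3 backgrounds was 7.82 points (exact permutation p 0.0905, adjusted 0.0905), and 10.3 points with a p of 0.0185 without W796A replicate 1. It joined unlike values: W796A made a difference of 24.5 points in the W465A background (exact permutation p 0.1) and of -0.19 points in the W464A/W465A background (exact permutation p 0.9).

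The adjacent CpGs were above their comparison CpGs in WT and close to them in W464A/W465A at the coverage minimum of 5 reads. With WT DNMT1, members exceeded the density-matched comparison by 9.03, 4.48 and 5.86 points in the 3 libraries, a mean of 6.45 ± 2.33 (SD, n = 3). The comparison level itself was 71.4% ± 8.92 (SD, n = 3). For W796A the difference was 5.04 ± 0.90 points, for W465A/W796A 5.79 ± 1.34 and for W465A 1.87 ± 0.55 (SD, n = 3 each). In W464A/W465A the libraries gave 0.18, -0.44 and 0.45 points (0.064 ± 0.454, SD, n = 3), and in W464A/W465A/W796A the mean was 0.64 ± 0.20 (SD, n = 3). Over all libraries the mean difference was 3.31 points, above 0 in 17 of 18 (exact two-sided sign-flip permutation p 2.28882e-05). This test speaks of libraries read at the same fixed sites, not of other sites.

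The size of this difference depended on the DNMT1 expressed. W464A/W465A changed it by -5.39 points over backgrounds, and W464A on top of W465A by -3.48 points. On the log2 ratio of the member level to the comparison level, a relative scale, these effects were -0.089 and -0.097. All 4 tests had an exact permutation p of 0.005 and an adjusted p of 0.01 over 8 tests. Added W464A changed the difference by -1.80 points in the W465A background and by -5.15 in the W465A/W796A background. The effects on the log2 ratio turned at high coverage. Over the 32 members that reach 20 reads everywhere, the log2 effects were 0.314 (adjusted exact permutation p 0.0133) and 0.058 (adjusted exact permutation p 0.64), while those in points were -5.37 and -6.55. Members there exceeded the comparison by 16.1 points in WT, 7.35 in W464A/W465A and 10.5 in W464A/W465A/W796A. In percent of the WT mean, members kept 28.8% ± 3.33 (SD, n = 3) and comparison CpGs 31.4% ± 4.23 (SD, n = 3) of their level in W464A/W465A. For W465A the effect was -1.92 points (adjusted exact permutation p 0.216) and 0.0075 on the log2 scale (adjusted exact permutation p 0.76), a mean of -4.59 points in the WT background and 0.75 points in the W796A background. For W796A it was 1.03 points (adjusted exact permutation p 0.259) and 0.025 on the log2 scale (adjusted exact permutation p 0.259).

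The difference was smaller once the bases next to the CpG were matched. Every member follows a G or precedes a C, and comparison CpGs in those contexts were more methylated than others in WT: 76.2% at GCGC and 75.2% at CCGC against 68.3% at ACGT and 69.1% at ACGA. When the comparison was also matched on the flanking bases, the WT difference was 3.82 points, W796A 2.70, W465A/W796A 3.67, W465A 0.80, W464A/W465A 0.35 and W464A/W465A/W796A 0.48. The mean over all libraries was then 1.97 points. This mean joined unlike contexts, counted together with their reverse complements. At CCGC the difference was 0.69 points in WT, -2.64 in W465A and -1.67 in W464A/W465A, and it was below 0 in 10 of 18 libraries. At ACGC it was 4.13 points in WT and at GCGC it was 4.69, each above 0 in 18 of 18 libraries. At GCGA it was 3.11 points in WT and above 0 in 14 of 18. The W464A/W465A effect was -2.85 points (adjusted exact permutation p 0.04), while on the log2 scale it was -0.037 (adjusted exact permutation p 0.0533), and the effect of added W464A no longer passed the threshold (-1.82 points, adjusted exact permutation p 0.0533). Within the 3573 tiles of 1 kb that hold both kinds of CpG, the WT difference was 5.87 points and that of W464A/W465A 0.53.

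**Figure D2:**
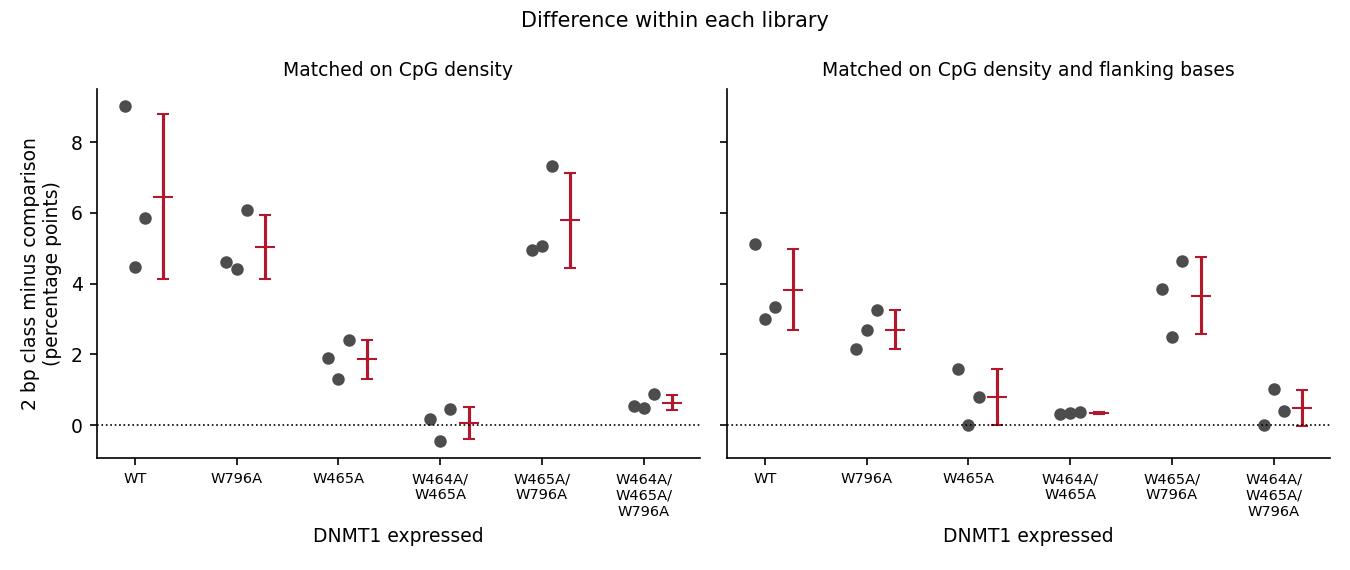
Member level minus comparison level within each library, in percentage points (vertical axis), by the DNMT1 expressed (horizontal axis), with the comparison matched on CpG density (left) or on density and flanking bases (right). Grey points are libraries and red bars the mean and SD of 3. The WT mean falls from 6.45 on the left to 3.82 on the right, and the groups with W464A/W465A lie near 0 in both panels.

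In WT and W796A the level matched on density alone was higher the closer the nearest CpG was, while in the 4 forms with W465A it was highest at 3 to 4 bp and lower at 2 bp. With flanking bases matched as well, the 2 bp class was below the 3 to 4 bp class in every form. In WT, the density-matched level was 70.4% where the nearest CpG was 50 bp or further, 71.9% at 20 to 49 bp, 74.5% at 10 to 19 bp, 76.2% at 5 to 9 bp, 76.9% at 3 to 4 bp and 77.8% at 2 bp. Within libraries, the 2 bp class minus the class at 50 bp or further was 7.45 ± 2.30 points in WT (SD, n = 3), and it was above 0 in 18 of 18 libraries. In W465A the level was 35.8% at 3 to 4 bp and 32.4% at 2 bp, and in W464A/W465A 26.6% and 22.4%. The 2 bp class minus the 3 to 4 bp class was 0.90 points in WT (libraries from -0.45 to 1.85) and 0.74 in W796A (0.12 to 1.40), but -3.41 for W465A and -4.16 for W464A/W465A. For W465A/W796A it was -1.44 and for W464A/W465A/W796A -3.67. With the flanking bases matched, it was -0.71 in WT, -0.66 in W796A and -4.25 in W464A/W465A, and below 0 in 18 of 18 libraries. The 2 bp class minus the 5 to 9 bp class was then -0.51 in WT and -0.54 in W796A, also below 0 in 18 of 18 libraries. These levels are a description, with no test, and the bases next to a CpG 3 or 4 bp from another can only be matched, not made the same sequence.

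**Figure D3:**
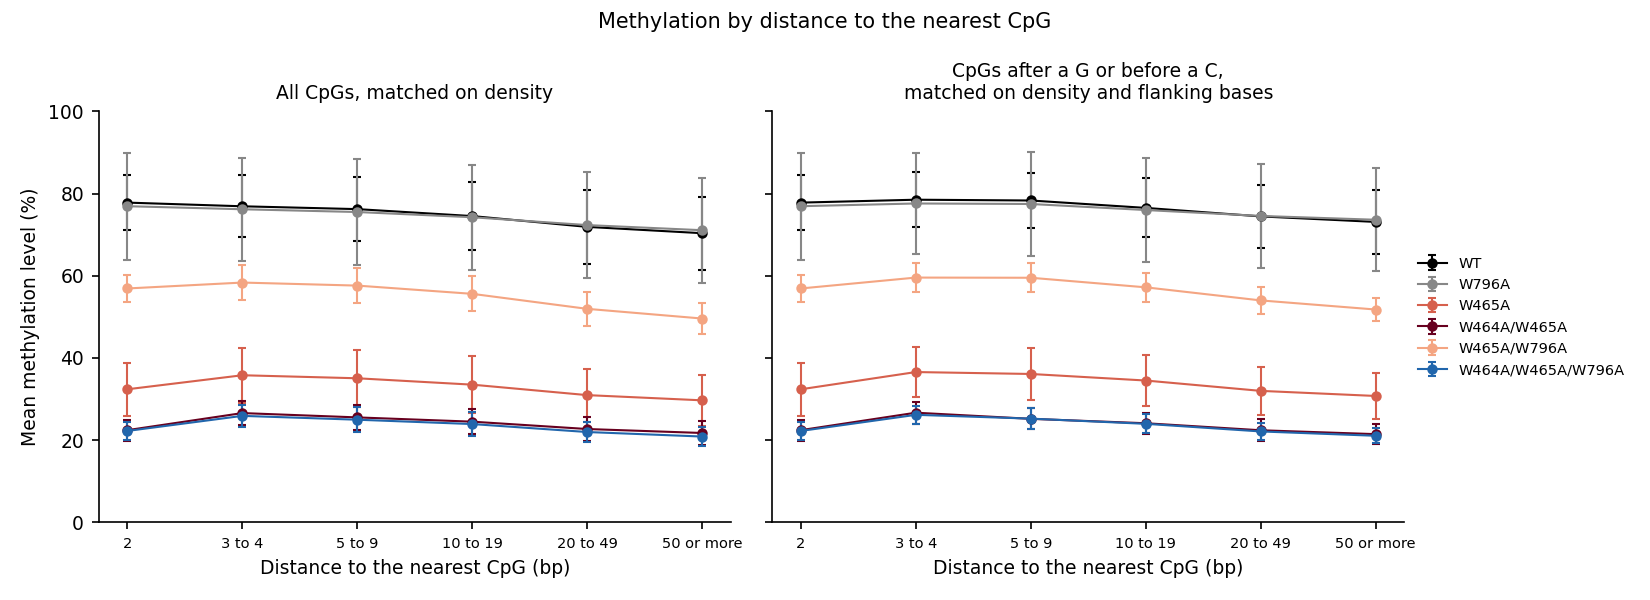
Mean methylation level in percent (vertical axis) by distance to the nearest CpG in bp (horizontal axis, classes), for all CpGs matched on density (left) and for CpGs after a G or before a C matched also on flanking bases (right). Points and bars are the mean and SD of 3 libraries, 1 line per form of DNMT1. In W465A and W464A/W465A the 2 bp class lies below the 3 to 4 bp class, at 32.4% against 35.8% and 22.4% against 26.6% on the left. On the right it lies below that class in every form of DNMT1.

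The higher WT mean came with more fully methylated CpGs. In WT libraries 38.1% ± 13.7 (SD, n = 3) of members and 21.9% ± 10.8 (SD, n = 3) of comparison CpGs had a level of at least 90%, while 25.4% and 38.1% lay between 50% and 80%. In W464A/W465A both classes had moved to low levels: 29.6% of members and 29.2% of comparison CpGs lay under 10%, and 59.8% and 60.3% between 10% and 50%. Only 85 members (0.650%) had no methylated read in any library, against 0.622% of comparison CpGs. These are values of single CpGs at low coverage, which widens the distributions.

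**Figure D4:**
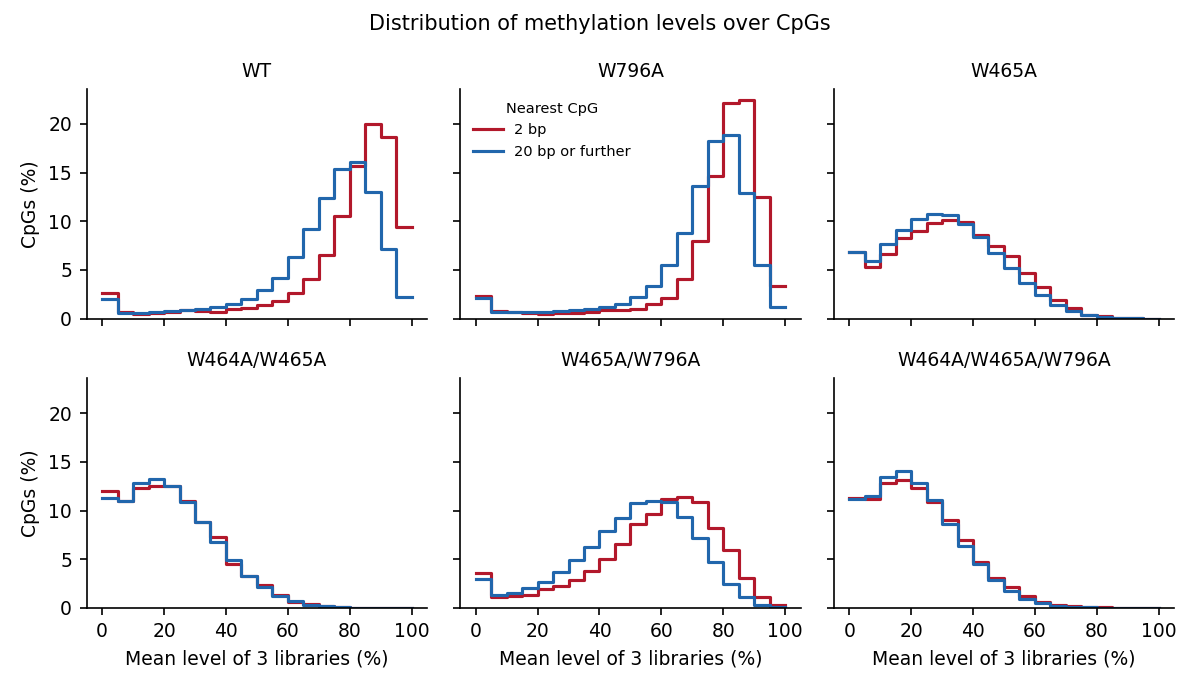
Share of CpGs in percent (vertical axis) by their mean level over the 3 libraries of a group in bins of 5 points (horizontal axis), for members (red) and comparison CpGs weighted to the same densities (blue), 1 panel per form of DNMT1. The red curve is shifted to higher levels in WT, W796A and W465A/W796A and overlies the blue one in W464A/W465A and W464A/W465A/W796A.

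Each CpG was then tested on its own in a quasi-binomial model of all 1424423 shared CpGs, with calls at an adjusted p under 0.05 and at least 10 points. In W465A, 11091 members (84.8%) were called lower than WT, against 53% of every shared CpG and 77% of the comparison CpGs. In W464A/W465A, 12048 members (92.1%) were lower, against 59.7% of every shared CpG and 88.5% of the comparison. In W464A/W465A/W796A it was 12223 members (93.4%), against 61.1% and 91.5%. In W465A/W796A it was 1166 members (8.91%), against 4.79% and 6.86%. No member was called higher than WT by this model in these 4 mutants. Of every shared CpG, 0.00176% were higher in W465A, 0.00239% in W464A/W465A, 0.000913% in W464A/W465A/W796A and 0% in W465A/W796A. The median difference of a member from WT was -47.9 points in W465A, against -44.2 over the comparison CpGs and -32.4 over every shared CpG, and -59.4, -53.1 and -40.7 in W464A/W465A. These comparison shares and medians were not weighted to the members' densities, whose median was 8 against 6 at comparison CpGs. Members also had the higher mean level in WT, and whether that accounts for their larger shares was not tested. Single libraries decided the W465A/W796A share. Leaving out WT replicate 2 gave 0.115% and WT replicate 3 2.55%, while leaving out WT replicate 1 gave 17.4%, W796A replicate 1 16.9% and W796A replicate 2 13.4%. Leaving out W465A/W796A replicates 1, 2 and 3 gave 5.21%, 2.61% and 1.60%, and limma called 0.206%. The W465A share was 56.2% without WT replicate 2.

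W796A alone left almost no call. By the quasi-binomial model 0 members were lower, against 0.0613% of every shared CpG, and 1 was higher (0.00764%), against 0.0118%. At an unadjusted p under 0.05 there were 569 members (4.35%), against 3.75% of every shared CpG, and limma called 0. In simulations of W464A/W465A against WT the model recovered 2 of 200 CpGs changed by 40 points. Few calls therefore do not show that few CpGs changed. The 1 member, named because it is the only one, lies at chromosome 11 position 96175082, 19234 bp from the start of the homeobox gene Hoxb13. Its level was 7.41%, 36% and 30% in WT and 52%, 82.6% and 84% in W796A (a difference of 46.2 points, quasi-binomial adjusted p 0.0466). The other CpG of its pair was not called, and its own coverage was as low as 10 reads in a library. The members' median difference from WT was -1.99 points in W796A, against -0.56 over the comparison CpGs, which were not weighted for density here.

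The CpGs of a pair were also counted together. Of the 6123 pairs, W465A had 4694 with both CpGs called lower and 1000 with 1 of them. These counts were 5385 and 507 for W464A/W465A, and 5511 and 414 for W464A/W465A/W796A. For W465A/W796A they were 197 and 717, so there most pairs with a call had it at 1 CpG. The counts follow from calls on single CpGs, of which 84.8%, 92.1%, 93.4% and 8.91% of members had one in these 4 mutants, and nothing particular to pairs is read from them. The CpG with the lower coordinate exceeded the other by 0.027 points on average (exact two-sided sign-flip permutation p 0.456 over 18 libraries). In WT both had the same number of reads in 97.5% of pairs, as they mostly lie on the same fragments, against 91.3% of neighbours 20 to 40 bp apart. The mean absolute difference in level between the 2 CpGs was 11.3 points in WT, against 11.6 at 3 to 4 bp, 12.5 at 5 to 19 bp and 14.7 at 20 to 40 bp. The root mean square difference within WT pairs was 18.6 points, where independent reads alone would give 14.2. An excess was also present at 3 to 4 bp (18.4 against 14.7), 5 to 19 bp (19.4 against 15.0) and 20 to 40 bp (21.3 against 15.6). It is therefore not particular to adjacent CpGs.

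Members differed among themselves by the bases around the CGCG. Counting a sequence with its reverse complement gives 10 classes, which hold between 314 (TCGCGA) and 2099 (ACGCGG) members. In WT the highest class was ACGCGC at 81.4% ± 5.8 (SD, n = 3, 1918 members) and the lowest CCGCGG at 73.2% ± 7.7 (SD, n = 3, 1368 members). ACGCGC was the highest class in 14 of 18 libraries and CCGCGG the lowest in 16. The difference between them was 8.20 points in WT, 6.77 in W796A and 12.1 in W465A. It was 11.1 points for W465A/W796A, 10.1 for W464A/W465A and 10.2 for W464A/W465A/W796A. It was above 0 in 18 of 18 libraries. The classes were taken over the 12386 members in runs of exactly 2 CpGs, so CpGs of longer runs are not in them.

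Longer runs were more methylated. In WT the level was 77.4% ± 6.8 in runs of 2, 84.3% ± 4.1 in runs of 3 and 89.3% ± 5.5 in runs of 4 or more (SD, n = 3 each). In W464A/W465A the levels were 22.0%, 29.1% and 30.6%. Runs of 3 and runs of 4 or more were above runs of 2 in 18 of 18 libraries, which is a description with no test. The run levels were not matched on density, flanking bases or repeat masking. The run of 7 CpGs in a Senp7 intron, a gene for a SUMO protease, at chr16:56134982-56134995 had 78.1% in WT, 48.8% in W465A/W796A, 22.5% in W465A, 9.90% in W464A/W465A and 9.27% in W464A/W465A/W796A. This run is repeat-masked and lay below the mean of runs of 4 or more in WT and in W464A/W465A.

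**Figure D5:**
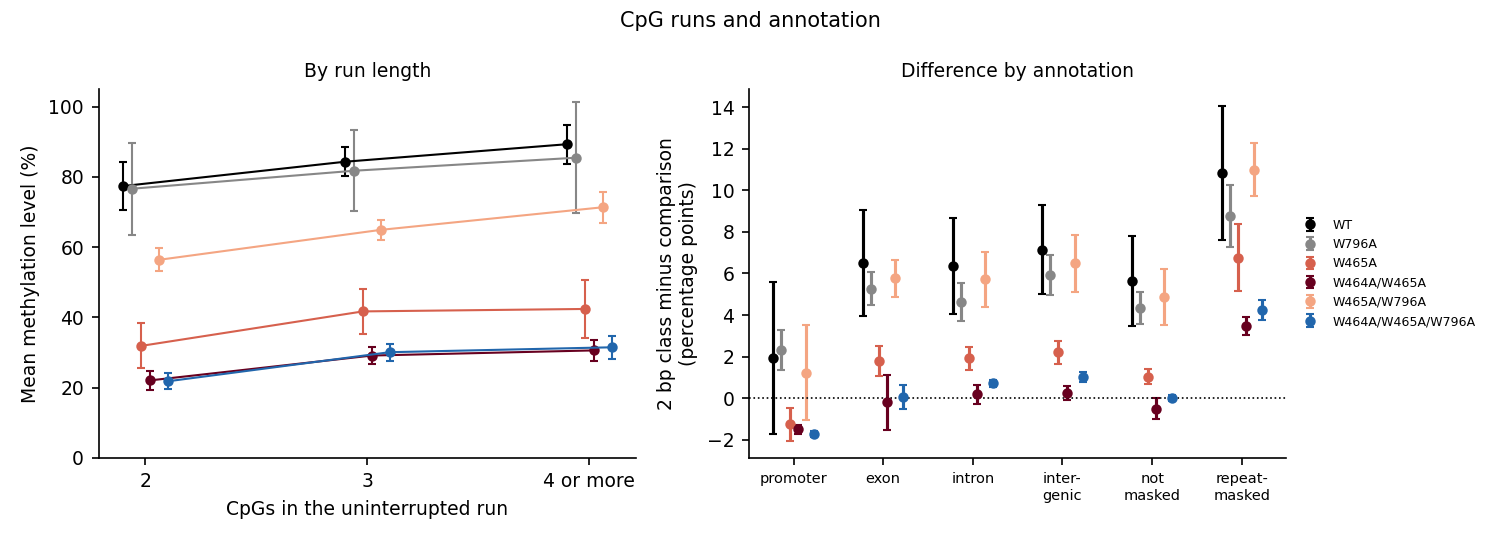
Left, mean methylation level in percent of members by the number of CpGs in the run, and right, member minus comparison level in percentage points by gene feature and by repeat masking of the reference. Points and bars are the mean and SD of 3 libraries, coloured by the DNMT1 expressed. WT rises from 77.4% in runs of 2 to 89.3% in runs of 4 or more, and the right panel is highest in repeat-masked sequence, at 10.9 points in WT.

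The difference from the comparison CpGs was not the same everywhere in the genome. In repeat-masked sequence it was 10.9 points in WT and still 3.48 in W464A/W465A, while elsewhere it was 5.63 and -0.51. In promoters, which hold 455 members at 64% ± 5.7 (SD, n = 3) in WT, it was 1.92 points in WT and below 0 in 11 of 18 libraries. Exons, introns and intergenic sequence gave 6.51, 6.35 and 7.15 points in WT. Across densities the WT difference lay between 5.89 points at 7 CpGs within 250 bp and 9.41 points at 2, where there are 98 members.

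The pairs that differed most from WT went from nearly full to low methylation. These were picked for the size of the difference, so their values are a description. The pair in an intergenic region at chr3:44809218-44809221 had 100%, 90.5% and 86.4% in WT and 19.6%, 11.4% and 4.55% in W465A. In W465A/W796A it had 76.5%, 44% and 50%, between both groups. The pair at chr7:143433596-143433599, 27400 bp from Cdkn1c, which is imprinted and codes for a cell-cycle inhibitor, had 69.2%, 91.7% and 92.9% in WT and 2.38%, 22.2% and 10.7% in W465A. The pair at chr2:103742999-103743002, in an intron of the RNA acetyltransferase gene Nat10, had a WT mean of 87.4% ± 2.98 and a W465A mean of 15.0% ± 12.6 (SD, n = 3 each). The exonic pair in Lrtm2 at chr6:119320875-119320878 had 96.4%, 91.4% and 93.2% in WT and 3.12%, 21.7% and 5.77% in W464A/W465A.

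At the pairs where W465A/W796A differed most from WT, the W465A mean was lower still. Libraries of W465A and W465A/W796A overlapped at the pair near Nectin3 and at the Gm20745 pair. These pairs were picked for the size of the difference, so their values are a description. The repeat-masked pair at chr16:46322900-46322903 had 62%, 78.8% and 86.0% in WT and 22.4%, 2.38% and 21.7% in W465A/W796A. In W465A it had 0%, 5.56% and 5.17% (3.58% ± 3.10, SD, n = 3). The pair at chr9:68021261-68021264 in a Gm20745 intron had a mean of 70.4% ± 13.9 in WT, 21.1% ± 12.8 in W465A/W796A and 17.7% ± 13.9 in W465A (SD, n = 3 each). The pair at chr11:7149615-7149618 in an intron of the adenylate cyclase gene Adcy1 had 87.4%, 40.1% and 22.7%.

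The pairs that kept the highest levels were picked for that, so their values are a description. Of 3760 pairs off chromosome 18 with a WT mean of at least 80%, the highest in the mutants with W464A/W465A was at chr5:66295196-66295199 in a Nsun7 intron, with 100%, 89.5% and 100% in WT and 85.7%, 68.8% and 80.8% in W464A/W465A. The pair at chr1:39647255-39647258 in a Creg2 intron had a WT mean of 91.3% and 61.1% in W464A/W465A, and the pair at chr1:132039832-132039835 in a Mfsd4a intron 87.6% and 62.7%. These 3 pairs had as few as 6 or 7 reads in a library. Among pairs with at least 10 reads everywhere, the highest mean over W464A/W465A and W464A/W465A/W796A together was at chr7:144655728-144655731 in an exon of the chloride channel gene Ano1. It had 93.5% in WT, 47.8% ± 20.1 in W464A/W465A and 61.1% ± 3.47 in W464A/W465A/W796A (SD, n = 3 each). Next came pairs in introns of Gas7, with 92.2% in WT, 53.3% in W464A/W465A and 49.7% in the triple mutant, and of Nkd1, with 83.2%, 49.8% and 51.5%. Both CpGs of all 3 were called lower in both mutants, with a larger quasi-binomial adjusted p between 0.000473 and 0.0474.

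A pair with no other CpG nearby lost methylation too. The repeat-masked pair at chr6:71311296-71311299 in an intron of the muscle methyltransferase gene Smyd1 had between 97 and 354 reads at each CpG and library. The median at members was 11 to 24 reads per library, and the cause of the higher depth of this pair was not tested. The pair's level was 43.6%, 42.7% and 44.5% in WT and 35.9%, 50.6% and 45.5% in W796A. It was 20.8%, 10.8% and 16% in W465A and 10.5%, 16.1% and 12.3% in W464A/W465A. The WT libraries did not overlap those of W465A or W464A/W465A (the larger quasi-binomial adjusted p of its CpGs was 5.00086e-07 and 1.59267e-08). W465A/W796A lay between, at 30.6%, 30.4% and 35.0% (the larger quasi-binomial adjusted p was 0.787).

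Adjacent CpGs in genes known for dependence on DNA methylation were also counted. By the member rule, CpGs in denser promoters and on the sex chromosomes could not be members. The absence of members from germline promoters is therefore not read as a result. Whether the counts are low for gene lists of this size was not tested. Of 26 germline genes, which are kept silent by methylation in other cells, 2 held 6 members, 4 in Piwil4 and 2 in Tdrd1, and none in a promoter. Of 30 imprinted genes, 4 held 8 members: Grb10, Igf2r, Meg3 and Mest. All 6 and all 8 were called lower in W465A, W464A/W465A and W464A/W465A/W796A, against 84.8%, 92.1% and 93.4% of all members. In W465A/W796A 1 of 6 and 0 of 8 were, against 8.91% of all members and 4.79% of every shared CpG. The 2 members in the promoter of Mest had 63.4% ± 17.6 in WT, 26.7% ± 11.7 in W465A/W796A and 7.50% ± 3.00 in W465A (SD, n = 3 each). The Igf2r members had 81.1% in WT, 88.6% in W465A/W796A and 39.4% in W464A/W465A.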

How the data were processed

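The authors deposited whole-number counts of methylated reads and of all reads per CpG and library, per the file headers, with no normalization. The submitters' processing notes name the builds mm10 and GRCm38, cutadapt 1.2.1, Bismark 0.18.1 and Bowtie 1.2; removal of duplicates is not given in the sources used here. All listed positions matched the CpGs of GRCm38, and features are from GENCODE vM21. Reads without molecular identifiers are not independent molecules, so the libraries of a group set the error.

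Comparison levels were weighted to the members' exact densities, while shares of calls and median differences were not. Tests on library means were exact two-sided permutation tests. A quasi-binomial logistic regression per CpG used all 18 libraries (12 residual degrees of freedom). Overdispersion was squeezed to a prior of 2.04 with 3965 degrees of freedom, taken from CpGs with a level of 10% to 90%, followed by an F test with Benjamini-Hochberg adjustment over 1424423 CpGs. An earlier prior from all CpGs gave false calls on simulated data and was replaced. In simulations of W464A/W465A against WT over 1424423 CpGs, 2 of 200 CpGs changed by 40 points were recovered, and 54.8% where 392582 CpGs were changed. For 392582 CpGs changed by 20 points it was 0.434%, and 0.514% for W465A/W796A against WT.

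Named pairs are, per mutant, those with the largest difference from WT among pairs with both CpGs called one way, no overlap between libraries and, where 20 or more pairs allow, at least 10 reads. To these were added the pairs with the highest level left in W464A/W465A and W464A/W465A/W796A, and the pairs without another CpG within 250 bp with the most reads. Pairs on chromosome 18 are not named. The members, lists and tests were chosen with earlier results of these data known. Alternatives were coverage minimums of 10 and 20 reads, reads counted once, the top 0.1% of coverage, chromosomes 8 and 11 or repeats left out, runs of 2 only, other comparison CpGs, other minimum differences, no squeezing, limma 3.58.1 (R 4.3.3), a replicate block and each library left out. Matching on flanking bases, on feature and repeats, on CpGs outside the run and within 1 kb was added after seeing the data. Python 3.11.15, numpy 2.4.6 and scipy 1.17.1 were used.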

Additional observations from a re-analysis of the deposited data

How the results depend on the processing

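Of 674 values under alternatives, 618 kept their direction and side of the threshold, or stayed within 1.5 times for a share of calls. The log2 effect of W465A on the ratio of members to comparison CpGs, 0.0075, turned to -0.012 at 10 reads or more, -0.0042 in runs of 2 and -0.0093 without repeats, and ranged from -0.0046 to 0.025 with 1 library left out (-0.0046 without WT replicate 2, -0.0013 without W465A replicate 3, -0.0046 without W465A/W796A replicate 3). At 20 reads or more, with 32 members, it was 0.256 (adjusted exact permutation p 0.0133), that of W464A/W465A 0.314, that of added W464A 0.058, and the W465A effect in points 1.18. Depth limits this check, as those values rest on 32 CpGs. With flanking bases matched, the log2 effects of W464A/W465A and of added W464A were -0.037 and -0.038 and the latter in points -1.82. The W796A effect on the difference ranged from 0.70 to 1.46 points and from 0.017 to 0.037 on the log2 scale with 1 library left out, passing the threshold without WT replicate 1 (adjusted exact permutation p 0.039 and 0.0284). The W796A effect on the member level ranged from 6.25 to 10.3 points, and W796A minus WT from -5.60 to 6.57. The difference between the first and second CpG was -0.36 points at 10 reads or more (exact permutation p 0.0118). The cause of these changes was not tested.

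The labels do not say whether same-numbered libraries share more than a number. Over members, their deviations correlated between 0.026 and 0.090 for WT with W796A, against -0.101 to 0.032 for libraries of other numbers. No pair of groups had all 3 above 0.1. An effect shared by same-numbered libraries was not tested further. With a replicate block the W464A/W465A effects on the difference, -5.39 points and -0.089, and those of added W464A, -3.48 points and -0.097, had an adjusted exact permutation p of 0.0625, where the smallest unadjusted p possible is 0.03125. The block gave 4.88% of members called in W465A/W796A.

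The share of members called in W465A/W796A was 3.22% without squeezing and 0.206% by limma, and ranged from 0.115% to 17.4% with 1 library left out. For W796A it was 0 at 10 reads or more, in a fit of the 2 groups alone and by limma, 0.107% without squeezing, and 0 to 0.0612% with 1 library left out. For W465A the range was 56.2% to 87.5%.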
